A study of Danio rerio with 12 samples.

Results

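Crystallins are the water-soluble proteins that fill the fibre cells of the vertebrate lens and give it its refractive index. The alpha crystallins are small heat shock proteins that bind unfolding proteins and so act as chaperones, whereas the beta and gamma crystallins are structural proteins built from Greek key folds. The beta crystallins form an acidic group, beta A, and a basic group, beta B, which assemble with each other. Zebrafish kept many duplicated crystallin genes, and several of the genes described here are such pairs. The 10 genes examined were the 3 alpha crystallins cryaa, cryaba and cryabb, the 6 beta A crystallins cryba1a, cryba1b, cryba1l1, cryba2a, cryba2b and cryba4, and the beta B crystallin crybb1. They were taken by symbol from the 37055 genes measured, 58 of which are counted here as crystallins. The other 48 of these are 7 beta and 41 gamma crystallins. crybg3 also carries a crystallin symbol but was left out of the 58 after its values were seen.

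Messenger RNA from whole eyes of 3-month-old zebrafish was sequenced in 6 lrpap1 mutant and 6 wild-type fish, with both eyes of 1 fish making up a sample. The mutant fish are homozygous for a frameshift that CRISPR/Cas9 introduced into lrpap1, the gene of a chaperone of lipoprotein receptors, and were kept as a stable line. The comparison asked which transcripts differ in the eyes of a line that was studied for its myopia. Whole eyes hold lens, retina, pigment epithelium, cornea and adhering tissue, so fewer lens cells and less crystallin mRNA per lens cell cannot be told apart.

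Mutant libraries held 7996647 to 9780310 counts and wild-type libraries 7988538 to 9829112. The targeted gene was still transcribed, as a frameshift allows, with 144 to 201 counts of lrpap1 in mutant samples and 214 to 273 in wild-type samples (log2 fold change -0.52, SE 0.11, adjusted p = 0.0108 by edgeR over 12 samples). One library stood apart in the genes of interest. In wild-type sample 3 all 58 crystallins made up 0.115% of TPM (counts divided by gene length and rescaled to a fixed total per sample), against 12.4% to 13.9% in the mutant samples and 12.8% to 20.4% in the other 5 wild-type samples. Its total of 9197390 counts lay within the range of the other samples. The 10 genes are therefore compared over 12 samples and over the 11 without wild-type sample 3, and the 5 remaining wild-type samples serve as the description of a wild-type eye with its lens RNA.

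In these 11 samples the 10 genes together supplied 2.16% to 2.83% of all TPM in the mutant and 2.37% to 4.08% in the wild type. cryba1a was by far the most abundant of them, with a median of 8256 TPM in mutant and 8302 TPM in wild-type eyes, and ranked between 7th and 13th among all genes in either genotype. Then came cryba2b with a median of 3204 TPM in mutant and 3866 TPM in wild-type eyes. cryba4 had 2973 TPM in mutant and 3623 TPM in wild-type eyes, and cryaa 2674 TPM in mutant and 3064 TPM in wild-type eyes. These 3 neighbours overlapped in their ranges in both genotypes, as did crybb1, cryba2a and cryaba with one another, which had medians between 1860 and 2191 TPM in the mutant and between 2230 and 2420 TPM in the wild type. cryba1l1 lay lower, at 965 TPM in mutant and 1075 TPM in wild-type eyes. cryabb and cryba1b were the scarcest, at 405 and 331 TPM in mutant eyes and at 487 and 362 TPM in wild-type eyes, with overlapping ranges. The order of the medians was the same in both genotypes except among crybb1, cryba2a and cryaba.

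**Figure D1:**
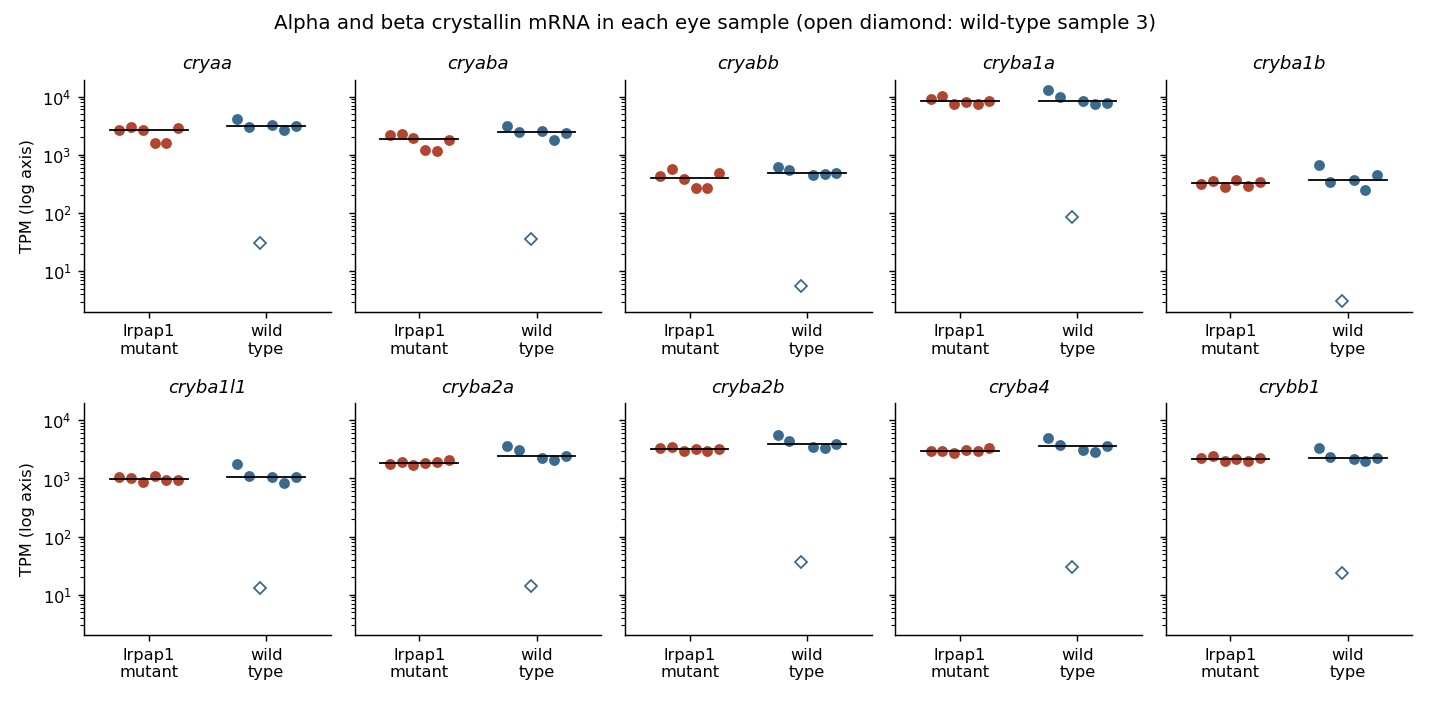
Each panel plots the TPM of 1 crystallin gene on a log axis, with 1 point per sample, lrpap1 mutant (red) at the left and wild type (blue) at the right. The line is the median of the 6 mutant samples or of the 5 wild-type samples other than sample 3, which is the open diamond and lies at 3.04 to 83.5 TPM, far below all other samples in each panel.

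The alpha crystallins varied more among mutant eyes than the beta crystallins did, and their low values came from the same pair of fish. cryaa (GRCz11 chromosome 1, 29096907 to 29100918, plus strand), the zebrafish form of alpha A crystallin, had 2680, 3026, 2668, 1592, 1567 and 2938 TPM in mutant samples 1 to 6. In wild-type samples 1, 2, 4, 5 and 6 it had 4110, 3018, 3310, 2623 and 3064 TPM, and in wild-type sample 3 it had 30.3 TPM. Mutant samples 4 and 5 were the lowest of the 11, while the other 4 mutant samples lay within the wild-type range. Over 12 samples the log2 fold change of cryaa was -0.32 (SE 0.63, adjusted p = 0.793). Without wild-type sample 3 it was -0.56 (SE 0.20, 95% interval -0.98 to -0.14), at an unadjusted p of 0.0135 and an adjusted p of 0.0913 by edgeR.

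cryaba and cryabb are duplicates of alpha B crystallin, which in mammals is found in muscle and other tissues as well as in the lens. cryaba (chromosome 15, 18119996 to 18124613, minus strand) had 2157, 2313, 1944, 1196, 1169 and 1776 TPM in mutant samples 1 to 6. It had 3140, 2420, 2596, 1788 and 2325 TPM in wild-type samples 1, 2, 4, 5 and 6, and 35.6 TPM in wild-type sample 3. The genotypes overlapped through wild-type sample 5, and mutant samples 4 and 5 were again the lowest. The log2 fold change of cryaba was -0.62 over 11 samples (SE 0.20, 95% interval -1.06 to -0.18, adjusted p = 0.0731) and -0.38 over 12 samples (SE 0.59, adjusted p = 0.727).

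cryabb (chromosome 5, 57641116 to 57650564, plus strand) had 431, 577, 379, 264, 271 and 495 TPM in mutant samples 1 to 6. The wild-type samples other than 3 had 605, 537, 453, 463 and 487 TPM, and wild-type sample 3 had 5.49 TPM. Mutant samples 2 and 6 lay inside the wild-type range and the other 4 below it. The log2 fold change of cryabb was -0.48 over 11 samples (SE 0.19, adjusted p = 0.138) and -0.24 over 12 samples (SE 0.61, adjusted p = 0.839). An uncharacterised gene on the opposite strand, gb:eh456644, overlaps cryabb by 3646 bases. It had 1 to 38 counts per sample. How reads in the overlap were assigned is not known, so the values of cryabb are uncertain to that extent.

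Of the beta A crystallins, the cryba2 pair showed the largest differences. cryba2a (chromosome 6, 13780210 to 13783634, minus strand) had 1743, 1907, 1720, 1836, 1931 and 2045 TPM in mutant samples 1 to 6. In wild-type samples 1, 2, 4, 5 and 6 it had 3631, 3072, 2287, 2057 and 2406 TPM, against 14.2 TPM in wild-type sample 3. Every mutant sample was below each of these 5 wild-type samples, although mutant sample 6 and wild-type sample 5 came close to each other. In TMM-scaled counts relative to the library total (CPM) the mutant samples spanned 934 to 1091 and the 5 wild-type samples 1104 to 2365. Fold changes and tests rest on scaled counts, not on TPM, and the scales differ. For cryaa the mutant mean over 11 samples was 74.8% of the wild-type mean in TPM and 67.9% in CPM.

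cryba2a was the only one of the 10 genes whose genotypes did not overlap in CPM over the 11 samples, and 2.54% of all 19272 genes tested were lower in the mutant without overlap. Its log2 fold change was -0.68 (SE 0.17, 95% interval -1.05 to -0.30, adjusted p = 0.0267 by edgeR), a level 62.5% of the wild type. In TPM the mutant mean of cryba2a over 11 samples was 69.3% of the wild-type mean. The exact two-sided permutation test over samples gave p = 0.00433 for cryba2a, the smallest value that the 462 assignments of the 11 samples allow, with 10 genes so tested and no adjustment. For the other 9 the exact permutation p was 0.0216 (cryaa) to 0.316 (cryba1a). Over 12 samples, where wild-type sample 3 takes part, the exact permutation p was 0.861 or higher for all 10 genes. Wild-type sample 3 was left out because these same genes were low in it. The lack of overlap and the p-values over 11 samples therefore depend on a choice made from crystallin values. The call was narrow. The adjusted p of cryba2a was 0.0525 without wild-type sample 1, 0.0617 without wild-type sample 2, 0.0545 without mutant sample 1, 0.0519 without mutant sample 2 and 0.0506 without mutant sample 3, and the log2 fold change in the 11 such fits lay between -0.81 and -0.53. Over 12 samples its log2 fold change was -0.43 (SE 0.66, adjusted p = 0.721).

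cryba2b (chromosome 9, 11554359 to 11560436, minus strand) had 3403, 3543, 2922, 3188, 2984 and 3221 TPM in mutant samples 1 to 6. It had 5674, 4357, 3525, 3313 and 3866 TPM in wild-type samples 1, 2, 4, 5 and 6, and 36.5 TPM in wild-type sample 3. The mutant samples were close together, and wild-type samples 1, 2 and 6 stood above all of them. Its log2 fold change was -0.51 over 11 samples (SE 0.17, 95% interval -0.87 to -0.15, adjusted p = 0.0716) and -0.27 over 12 samples (SE 0.62, adjusted p = 0.824).

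The other beta A genes overlapped widely between genotypes. cryba4 (chromosome 10, 44042177 to 44051466, plus strand) had 2953, 2994, 2721, 3143, 2909 and 3275 TPM in mutant samples 1 to 6. The wild-type samples other than 3 had 4907, 3832, 3058, 2807 and 3623 TPM, and wild-type sample 3 had 29.6 TPM. Wild-type samples 4 and 5 lay among the mutant samples, and the log2 fold change of cryba4 was -0.42 over 11 samples (SE 0.17, adjusted p = 0.130) and -0.18 over 12 samples (SE 0.63, adjusted p = 0.890).

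cryba1a (chromosome 15, 28086694 to 28094349, minus strand) had 7375 to 10074 TPM in the 6 mutant samples (median 8256). In the 5 wild-type samples it had 7513 to 12836 TPM with a median of 8302, and in wild-type sample 3 it had 83.5 TPM. Its median was therefore nearly the same in both genotypes, and the log2 fold change was -0.28 over 11 samples (SE 0.18, 95% interval -0.67 to 0.10, adjusted p = 0.358) and -0.04 over 12 samples (SE 0.63, adjusted p = 0.976). The duplicate cryba1b (chromosome 21, 39185767 to 39194686, plus strand) had 278 to 361 TPM in mutant samples and 248 to 655 TPM in the 5 wild-type samples, and 3.04 TPM in wild-type sample 3. Its log2 fold change was -0.48 over 11 samples (SE 0.22, adjusted p = 0.187) and -0.24 over 12 samples (SE 0.61, adjusted p = 0.840), with wild-type sample 5 below every mutant sample and wild-type sample 1 the highest. cryba1l1 (chromosome 14, 46313396 to 46320286, plus strand) had 880 to 1087 TPM in mutant samples and 834 to 1806 TPM in the 5 wild-type samples, and 12.9 TPM in wild-type sample 3. Its log2 fold change was -0.41 over 11 samples (SE 0.20, adjusted p = 0.208) and -0.17 over 12 samples (SE 0.60, adjusted p = 0.893).

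crybb1, the one beta B crystallin of the set (chromosome 10, 44021224 to 44027391, minus strand), had 2262, 2468, 2020, 2144, 1964 and 2239 TPM in mutant samples 1 to 6. It had 3395, 2326, 2189, 2005 and 2230 TPM in wild-type samples 1, 2, 4, 5 and 6, and 23.3 TPM in wild-type sample 3. In TPM only wild-type sample 1 stood above all mutant samples. In CPM scaled over 12 samples, wild-type samples 1, 2 and 6 did, at 1984, 1391 and 1161 against at most 1134 in the mutant. Over 11 samples the mutant mean was 89.9% of the wild-type mean in TPM and 81.5% in CPM. The log2 fold change of crybb1 was -0.29 over 11 samples (SE 0.16, 95% interval -0.64 to 0.05, adjusted p = 0.277) and -0.05 over 12 samples (SE 0.61, adjusted p = 0.969).

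Read as a group, the 10 genes were all nominally lower in the mutant, and few passed a test. Genes were called at an adjusted p under 0.05 with an absolute log2 fold change over 1. By that rule 0 of the 10 were called over 12 samples, where 4.55% of 18984 genes were called, and 0 of the 10 over 11 samples, where 4.45% of 19272 genes were called. At an adjusted p under 0.05 in either direction and at any fold change, 0 of the 10 passed over 12 samples, against 11.2% of all genes tested. Over 11 samples 1 of the 10 passed, cryba2a, against 9.77% of all genes. At an unadjusted p under 0.05, 0 of the 10 were lower over 12 samples (13% of all genes) and 7 of the 10 over 11 samples (10.7% of all genes). These were the 3 alpha crystallins, cryba1b, cryba2a, cryba2b and cryba4. Wild-type sample 3 was left out for its low level of these genes, and leaving it out by itself makes their fold changes more negative. Most of the other genes had no part in that choice, so their share over 11 samples is not a like comparison.

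The log2 fold changes were negative for 10 of 10 genes in both fits, against 52.6% of all genes over 12 samples and 50.2% over 11 samples. Their median was -0.24 over 12 samples, where that of all genes was -0.02, and -0.48 over 11 samples, where that of all genes was 0.00 to 2 decimals. The 10 genes moved together from sample to sample, so they are not 10 independent measurements. In the 12-sample fit the standard errors were 0.59 to 0.66, against 0.16 to 0.22 in the 11-sample fit, and the sign of 7 of the 10 genes turned positive over 12 samples with limma. With DESeq2 over 11 samples, cryaa (adjusted p = 0.0347), cryaba (adjusted p = 0.0225) and cryba2b (adjusted p = 0.0225) also fell below 0.05, which with cryba2a made 4 of 10, against 12.7% of all genes with an adjusted p in that fit. Without wild-type sample 5, which held the least crystallin mRNA of the 5, 6 of 10 passed in edgeR, against 11.6% of all genes. Without wild-type sample 4 it was 2 of 10, cryba2a and cryba2b, against 7.01% of all genes. Without wild-type sample 1, which held the most crystallin mRNA, it was 0 of 10, where 1555 of 19538 genes passed. The median log2 fold change of the 10 was then -0.31. It was also 0 of 10 without wild-type sample 2 or mutant sample 1, 2 or 3, where 1226 to 1478 genes passed. Only cryba2a passed without wild-type sample 6 or mutant sample 4, 5 or 6, where 1182 to 1812 genes did.

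**Figure D2:**
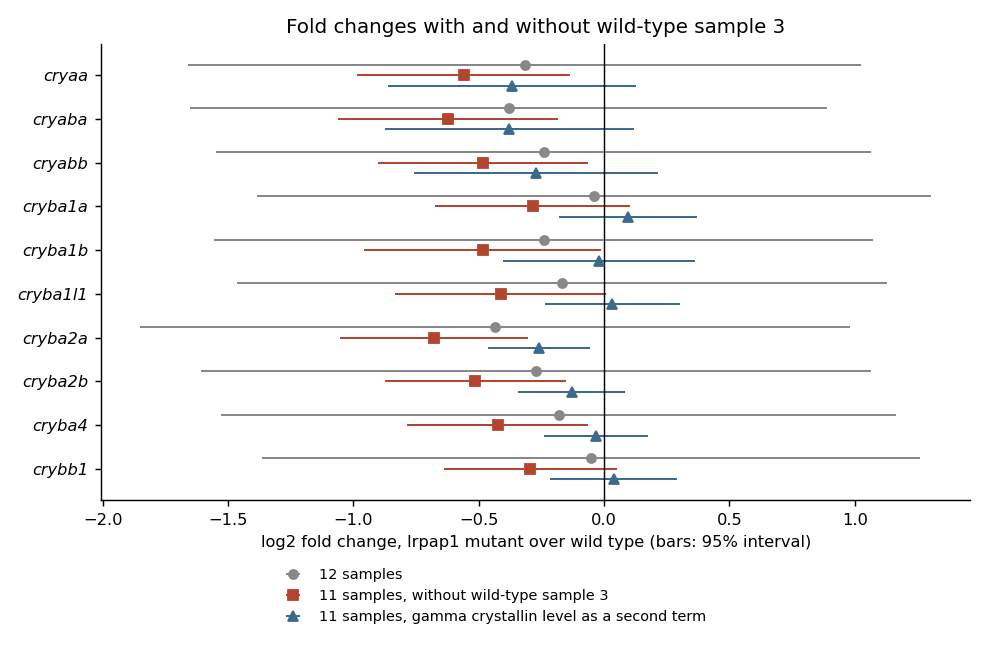
The horizontal axis is the log2 fold change of lrpap1 mutant over wild type for the 10 crystallins, and bars are 95% intervals from edgeR. Over 12 samples (grey circles) all intervals span 0, over 11 samples without wild-type sample 3 (red squares) the points lie between -0.68 and -0.28, and with gamma crystallin level as a second term (blue triangles) the points lie between -0.38 and 0.09.

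To set these genes against the gamma crystallin level of each sample, as a stand-in for lens RNA, the fit over 11 samples was repeated. The second term was the summed level of the gamma crystallins that passed the expression filter, 21 of 41 over 11 samples and 20 over 12 samples. None of the 10 genes belongs to that sum. The gamma crystallins were themselves lower in the mutant, at a median of 8.38% of TPM against 9.53% in the 5 wild-type samples. They include genes that fell with genotype, such as crygm2b (log2 fold change -2.04). The second term can thus take up part of a genotype difference, and this fit cannot separate genotype from the amount of lens RNA. The beta crystallins other than cryba2a and cryba2b then lay near 0, with log2 fold changes of 0.09 for cryba1a, -0.02 for cryba1b, 0.03 for cryba1l1, -0.03 for cryba4 and 0.04 for crybb1, the sign of cryba1a, cryba1l1 and crybb1 having turned. Values for the others were -0.37 for cryaa, -0.38 for cryaba, -0.27 for cryabb and -0.13 for cryba2b, with adjusted p between 0.412 and 0.572. cryba2a was at -0.26 (SE 0.09, 95% interval -0.46 to -0.06, unadjusted p = 0.0168, adjusted p = 0.148). In this fit 0 of the 10 had an adjusted p under 0.05, against 4.1% of all genes, and 1 of the 10, cryba2a, was lower at an unadjusted p under 0.05, against 7.46%. The same fit over 12 samples gave -0.24 for cryba2a (SE 0.08, adjusted p = 0.0678), and again 0 of the 10 passed, against 10.7% of all genes.

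The composition of the crystallin mRNA was described without a test. cryba2a made up 1.25% to 1.54% of all crystallin TPM in the mutant samples, against 1.61% to 1.78% in the 5 wild-type samples, which do not overlap, but 1.23% in wild-type sample 3. cryba2a had already stood apart in CPM over the same samples, so its share is no separate evidence. How many of the 58 crystallins do not overlap in this share was not counted. The 7 beta genes together made up 13.9% to 16.1% in the mutant samples and 13.8% to 16.1% in the 5 wild-type samples. The 7 other beta crystallins made up 19.2% to 20.2% in the mutant samples against 16.8% to 19.0% in the 5 wild-type samples, which do not overlap and differ in the direction opposite to cryba2a, and 20.9% in wild-type sample 3. The 3 alpha crystallins made up 3.78%, 4.27%, 4.02%, 2.24%, 2.25% and 3.92% of crystallin TPM in mutant samples 1 to 6, and 3.29% to 4.79% in the 5 wild-type samples. Mutant samples 4 and 5 thus had a lower alpha share than any other sample, while their beta shares, 14.5% and 13.9%, were within the range of the rest. The ratio of alpha to beta TPM was 0.154 and 0.162 in these mutant samples, 0.253 to 0.279 in the other 4 mutant samples and 0.239 to 0.306 in the 5 wild-type samples.

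**Figure D3:**
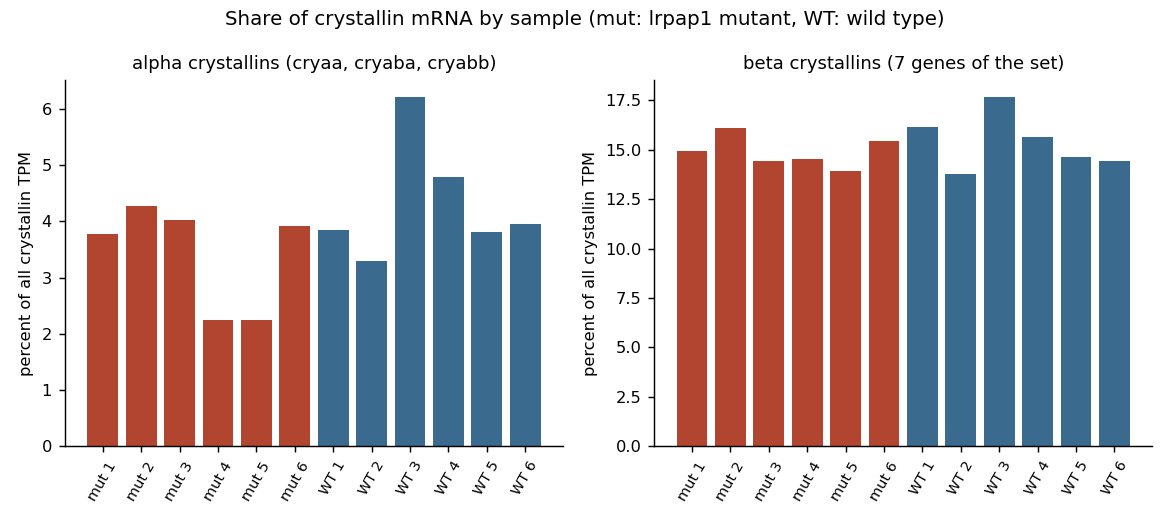
Bars give, for each sample, the percent of all crystallin TPM that came from the 3 alpha crystallins (left panel) and from the 7 beta crystallins of the set (right panel), lrpap1 mutant in red and wild type in blue. The alpha share is lowest in mutant samples 4 and 5 (2.24% and 2.25%) and highest in wild-type sample 3 (6.21%). The beta share is also highest in wild-type sample 3 (17.7%), against 13.8% to 16.1% in the other 11 samples. The gamma crystallins, not drawn, made up 55.2% in wild-type sample 3, against 59.5% to 66.1% in the other 11.

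The same division showed in how the genes varied over the 11 samples. Pearson r of log2(CPM + 1) was 0.91 to 0.97 among the 3 pairs of alpha crystallins and 0.83 to 0.97 among the 21 pairs of beta crystallins. Between an alpha and a beta crystallin it was 0.56 to 0.80 over 21 pairs. All pairs share the same libraries and the same genotypes, so these values describe the 11 samples and carry no test.

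A few of the beta genes have a beta B gene as their divergent neighbour with no other gene between them. cryba1a lies 1802 bases from crybb1l3 (r = 0.91), cryba1l1 lies 2794 bases from crybb1l1 (r = 0.95), and cryba4 lies 14785 bases from crybb1 (r = 0.93). These values lay around the median r of the 21 pairs of beta crystallins in the set, 0.93. cryba1a on chromosome 15 and crybb1 on chromosome 10 had r = 0.97. cryabb lies 5451 bases from hspb2, the gene of another small heat shock protein, also as a divergent neighbour, and here r was 0.48. hspb2 had a median of only 1.546 CPM in the 5 wild-type samples, so its values carry a large counting error and its r cannot be set beside those of the abundant crystallins.

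Among genes that are not crystallins, the one most like cryba2a over the 11 samples was dnase1l1l (r = 0.97), the gene of the nuclease that clears DNA from lens fibre cells in zebrafish, and the one most like crybb1 was lctla, lactase-like a (r = 0.94). For cryba2b the first was eif5, a translation initiation factor, and the second lctla, both at r = 0.99. For cryabb the first 2 were wnt7ba (r = 0.97), a secreted Wnt signal, and pitx3 (r = 0.94), a transcription factor of lens development. Second for cryba2a was eif5 (r = 0.96) and second for crybb1 was rprml (r = 0.94). The first for cryaa was sparcl1, for cryaba aip, for cryba1a rprml and for cryba1b arl8, each at r = 0.95. For cryba1l1 it was dtnbp1a (r = 0.93) and for cryba4 eif5 (r = 0.96). Each of these genes was picked for its high r from the 19272 genes tested, over samples that share genotypes and libraries. Values this high can arise from such picking alone, and they carry no test. Over 12 samples, where wild-type sample 3 sets the correlation, grifin, a galectin-related protein of lens fibres, came first for each alpha crystallin at r = 0.99.

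Wild-type sample 3 also offers a view of what an eye library holds when its lens RNA is nearly gone. No gene of the set kept more than 1.42% of its usual level there. As a percent of the median CPM of the other 5 wild-type samples, the alpha crystallins were at 0.946% for cryaa (201 counts, 95% Poisson interval 0.820% to 1.09%), 1.42% for cryaba (152 counts, 1.201% to 1.662%) and 1.08% for cryabb (83 counts, 0.859% to 1.34%). The interval of cryaba lay above that of cryaa, and that of cryabb overlapped both. cryaba was not the highest crystallin, however. The 7 other beta crystallins were at 0.360% (crybgx) to 1.53% (crybb1l3, 28 counts, 1.02% to 2.22%). Such intervals cover counting error only, and this is 1 library.

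The beta crystallins were spread about the same level. cryba2a was the lowest of the 10 at 0.564% (71 counts, 0.441% to 0.712%), and cryba1l1 was the highest beta at 1.15% (55 counts, 0.864% to 1.49%). The others were at 0.735% for cryba1b (15 counts), 0.782% for cryba4, 0.904% for cryba2b, 1.00% for crybb1 and 1.02% for cryba1a. The alpha crystallins were 9.42% of the 4630 crystallin counts of this library (Wilson 95% interval 8.61% to 10.3%), against 3.81% to 7.10% in the mutant samples and 5.63% to 7.76% in the other wild-type samples. The beta genes of the set were 19.4% (18.3% to 20.6%), against 16.3% to 18.6% in all other samples. For the other beta crystallins it was 26.0% against 21.9% to 25.5%, and for the gamma crystallins 45.2% against 49.1% to 56.2%. Whether any of these counts came from outside the lens was not tested.

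**Figure D4:**
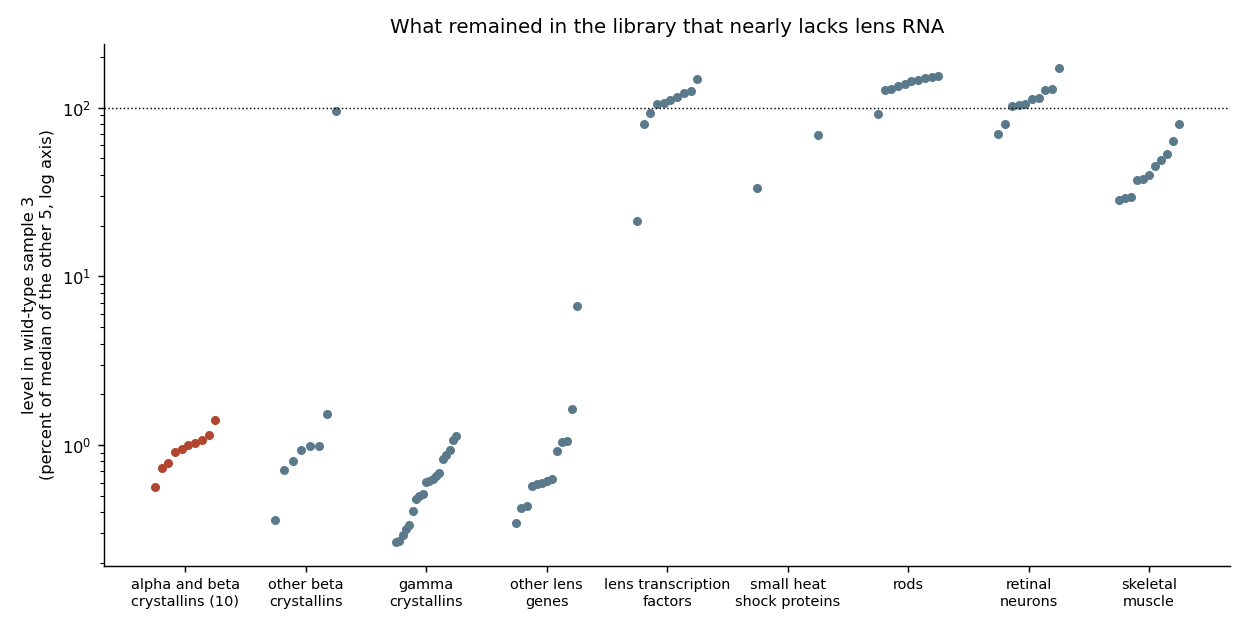
Points are genes with a median of at least 20 CPM in wild-type samples 1, 2, 4, 5 and 6, and the vertical log axis gives their level in wild-type sample 3 as a percent of that median, with a dotted line at 100%. The 10 alpha and beta crystallins (red) lie between 0.564% and 1.42%, beside the gamma crystallins and other lens genes, while rod, retinal neuron and muscle genes lie between 28.4% and 173%. The lens gene gja8a had 0 counts and is not drawn.

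Other lens genes had gone with them. The 19 gamma crystallins with at least 20 CPM were at 0.266% to 1.14%, and 13 of 14 other lens genes, which include the water channel gene mipa and the beaded filament genes bfsp1 and bfsp2, were under 5%. The exception, dnase1l1l, was at 6.69%, and the gap junction gene gja8a had 0 counts, where 3 counts would be 1.35% of its usual level. Outside the lens lists, 10 rod genes were at 92.1% to 155%, 10 genes of retinal neurons at 70.0% to 173% and 11 muscle genes at 28.4% to 80.4%. Mueller glia genes were at 43.8% to 113%, pigment epithelium and pigment cell genes at 46.6% to 131%, and erythrocyte genes at 34.4% to 72.3%. Genes of cornea and surface epithelium were at 31.7% to 161%, cone genes at 128% to 145% and leukocyte genes at 86.9% to 93.3%. Of 7677 genes with at least 20 CPM, 82 were under 5%, and 36 of these were crystallins, the 10 genes of the set included. Genes outside the lens lists were also among the 82. The one gene with a crystallin-like symbol that stayed was crybg3, at 95.0% of its usual level, with 223 counts there. The small heat shock protein genes with at least 20 CPM, hspb1 and hspb6, were at 33.3% and 69.0%. The scarcer hspb7, hspb8 and hspb11 were at 17.9%, 34.3% and 28.5% on 14, 17 and 20 counts. Transcription factors used in the lens differed. The 10 with at least 20 CPM were at 21.2% (pitx3) to 147%, and many of them are also expressed in the retina. Below that level, hsf4 was at 1.76% (2 counts, 95% Poisson interval 0.213% to 6.36%), sox1b at 7.22% (4 counts) and foxe3 at 16.3% (7 counts). Why this library holds so little lens RNA was not tested.

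The remaining beta and gamma crystallins and the other lens genes showed how far the differences in the 10 genes extended over the 11 samples. Of the other beta crystallins with crybg3, 0 of 8 passed an adjusted p of 0.05, against 9.77% of all genes. Their median log2 fold change was -0.28. The 2 most abundant of them were crybb2, at 11934 TPM in mutant and 11722 TPM in wild-type eyes as medians, and crybb3, at 8377 TPM in mutant and 8334 TPM in wild-type eyes. crybb1l2 had medians of 3154 TPM in mutant and 3611 TPM in wild-type eyes and a log2 fold change of -0.47 (adjusted p = 0.0990). Medians of the scarcer crybgx, cryba1l2, crybb1l1 and crybb1l3 lay between 272 and 1153 TPM in mutant and between 292 and 1235 TPM in wild-type eyes.

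Among the gamma crystallins 4 of 21 tested fell and 0 rose at an adjusted p under 0.05, with a median of -0.47. Of all genes tested 9.77% passed in either direction. crygm2b fell most reliably (log2 fold change -2.04, SE 0.30, adjusted p = 0.00129), with 135 to 632 CPM in mutant and 999 to 2167 CPM in wild-type eyes. crygm2e (-2.28), crygm1 (-1.29) and crygm2f (-0.82) were the others. Of 16 lens genes other than crystallins 3 fell, namely mipb (-0.59, adjusted p = 0.0313) and mipa (-0.52, adjusted p = 0.0353), the genes of the lens fibre water channel, and dnase1l1l (-0.79, adjusted p = 0.0353). The median of the 16 was -0.51. None of these lens genes passed over 12 samples, where wild-type sample 3 takes part in the wild-type mean and spread. That sample was left out for its lack of lens RNA, so the counts over 11 samples depend on that choice here too.

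The lists that follow were read over 11 samples. In that fit 9.77% of all genes tested had an adjusted p under 0.05, and over 12 samples 11.2% did. Of 15 transcription factors used in the lens, mafbb rose (1.15, adjusted p = 0.00435), and six3a (-0.52, adjusted p = 0.00374) and pax6a (-0.29, adjusted p = 0.0346) fell. Both six3a and pax6a are also retinal genes. Over 12 samples 1 rose and 3 fell. Most log2 fold changes in the 2 lists of other heat shock genes were negative, and few genes passed. Negative were 4 of 6 small heat shock protein genes (median -0.14) and 14 of 18 heat shock chaperone genes (median -0.15), against 50.2% of all genes. Of 6 small heat shock protein genes tested 0 passed, with hspb1 at -0.56 (adjusted p = 0.0741). Of 18 heat shock chaperone genes 1 rose, hsf1, the heat shock transcription factor (0.50, adjusted p = 0.00344), and 1 fell, serpinh1b, the gene of a collagen chaperone (-1.01, adjusted p = 0.00385), while over 12 samples 2 rose and 2 fell.

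Some markers of other tissues in the eye differed between genotypes as well. Their counts are to be read against 9.77% of all genes over 11 samples and 11.2% over 12 samples, in either direction. Lists with 1 or 2 passing genes of 9 or more lie near that share. Skeletal muscle genes, whose list bears on alpha B crystallin, had 2 of 13 that fell and a median of -0.57. Their summed level was 1295 to 2802 TPM in mutant samples and 1744 to 2997 TPM in the 5 wild-type samples. Over 12 samples 1 of 13 fell. Leukocyte genes had 4 of 10 that rose (5 of 9 over 12 samples), and erythrocyte genes 2 of 5 that fell in both fits. Of 12 genes of cornea and surface epithelium 3 rose, among them epcam (1.49, adjusted p = 0.00423), and 1 fell, krtt1c19e (-2.68, adjusted p = 0.000284), with the same counts over 12 samples. In the retina 2 of 10 neuronal genes fell, vsx1 (-0.54, adjusted p = 0.00368) and tfap2b (-0.45, adjusted p = 0.0371), and over 12 samples 3 fell. Of 6 Mueller glia genes 1 fell, gfap (0 over 12 samples), and of 9 pigment epithelium and pigment cell genes 1 fell, dct, in both fits. At an adjusted p under 0.05, 0 of 10 rod genes and 0 of 9 cone genes passed in either fit. The part of these tissues in the crystallin values was not tested.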

How the data were processed

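The eyes of 6 lrpap1 mutant and 6 wild-type zebrafish, grouped by their labels, were compared. Per the study's methods and the submitters' processing notes, the authors enriched polyadenylated RNA, aligned reads to GRCz11 with HISAT2 2.1.0 and deposited raw counts per gene. The counting program and its use of strand are not given in the sources used here. The authors also deposited TPM, which equalled count over listed gene length, rescaled, within 4.99e-06. Coordinates are those of the deposited table.

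Counts were tested in R 4.3.3 with edgeR 4.0.16 (TMM, filterByExpr, quasi-likelihood test, genotype as the only term), with Benjamini-Hochberg adjustment over all 18984 genes tested (12 samples) or 19272 (11 samples). Standard errors and 95% intervals derive from the F statistic. DESeq2 1.42.0, limma 3.58.1 (voom with quality weights), other scalings and filters, gamma crystallin level as a second term, the replicate number as a block, and leaving out each sample were alternatives. Single genes had exact permutation tests on log2(CPM + 1). The tests were checked on simulated counts. No 2 samples were the same library (chi-square of the closest pair over its degrees of freedom, 7.02). Samples come from separate fish.

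Members and lists were chosen with earlier results of these data known. Named genes are the 10 crystallins, up to 4 genes per list with the smallest p, the other beta crystallins, and up to 3 genes most like each member. Genes of the figures' lists named only for their level in wild-type sample 3, and hspb2 and gb:eh456644, were chosen for position or after their values were seen. Crystallins were taken as symbols starting with crya, cryb or cryg. The planned prefix cry would have taken in other families such as the cryptochromes, and crybg3 was left out after its level in wild-type sample 3 was seen.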

Additional observations from a re-analysis of the deposited data

Results flagged for a closer look

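In 4 of the 48 sets of 6 samples examined, wild-type sample 3 lay far from the other wild-type samples. About 1 in 20 such sets is marked by chance. This library was singled out in advance for its lack of lens RNA, and 3 of the 4 values are shares of the same total, so the 4 are not independent and add no evidence that it stands apart. The measure is the gap to the nearest sample divided by the whole range, with 0.625 as the 95% critical value for 6 samples. For the percent of all TPM taken by crystallins the gap was 0.626 of the range, with 0.115% in sample 3 against 12.8% to 20.4% in the other 5. Within the little crystallin mRNA that this library held, cryaba took 3.10%, against 1.33% to 1.95% in the remaining wild-type fish (gap 0.647 of the range), and cryabb took 0.477%, against 0.296% to 0.362% (gap 0.639). cryba2a took 1.23%, against 1.61% to 1.78% (gap 0.681). These shares rest on 152 counts of cryaba, 83 of cryabb and 71 of cryba2a. The mutant samples gave no such value.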

How the results depend on the processing

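Over 12 samples, genes called numbered 864, against 464 with at least 10 counts in every sample, 1528 with DESeq2 and 2124 at any fold change. Over 11 samples they numbered 858, against 452, 1407 and 1882 under the same settings and 507 with gamma crystallin level as a second term. Leaving out 1 sample at a time gave 686 to 1160 genes over 12 samples and 605 to 1075 over 11. None of the 10 crystallins was called under any setting that kept the fold threshold. At an adjusted p under 0.05 alone, 1 crystallin passed over 11 samples, 4 with DESeq2, 0 with the gamma term, and 0 to 6 with 1 sample left out (0 to 1 over 12 samples).

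Replicate numbers did not pair the samples (r of same-numbered samples -0.27 to 0.09, and 0 of 6 numbers correlated best with their own). With the replicate number as a block, 558 genes were called over 11 samples and 2 crystallins passed, cryaa (adjusted p = 0.0397) and cryaba (0.0154), against 5.08% of all genes, while cryba2a was at 0.110.

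Over 12 samples several log2 fold changes changed sign. For cryabb, cryba1a, cryba1b, cryba1l1, cryba2b, cryba4 and crybb1 they were 0.036, 0.30, 0.082, 0.12, 0.048, 0.13 and 0.25 with limma, and 0.057, 0.36, 0.22, 0.25, 0.13, 0.22 and 0.33 with the replicate block. cryba1a and crybb1 were at 0.026 and 0.013 with total count scaling, and at 0.10 and 0.080 with the gamma term. With 1 sample left out, cryba1a ranged from -0.28 to 0.22, cryba1b from -0.48 to 0.12, cryba1l1 from -0.41 to 0.16, cryba4 from -0.42 to 0.066 and crybb1 from -0.29 to 0.22. Over 11 samples the sign changed only with the gamma term (cryba1a 0.094, cryba1l1 0.033, crybb1 0.038). The cause of these changes was not tested.

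The highest level in wild-type sample 3 was 1.42%, and 2.07% against the lowest other wild-type sample. With crybg3 counted among the crystallins, an alternative chosen after seeing the data, the alpha share there was 6.15% in place of 6.21%. Counts of 15 to 397 per crystallin in that sample limit the precision of its values.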
